A study of Mus musculus with 2 samples.

Results

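Mouse blood B cells were sequenced one by one, and some of the wells held hemoglobin transcripts beside those of the B cell. The study's own annotation puts each cell in 1 of 3 hemoglobin classes, 0, 1 or 2, read there as the number of red cells caught with the sorted cell. Here the B cells of class 2 were set against the B cells of class 0 in the same mouse, in every mouse with at least 2 cells of each class. This gave 44 class 2 and 256 class 0 cells, 300 of the 600 B cells, from 9 of the 11 mice. All B cells held 45 cells of class 2, 188 of class 1 and 367 of class 0, and the whole series held 981 cells with RNA, 69 of them of class 2. The question was which red cell transcripts other than hemoglobin come along. Alas2 did so most plainly: it was found in 29 of the 44 class 2 cells and in none of the 256 class 0 cells. Bpgm, Ube2l6, Isg20, Fech and Tent5c were found in 10 to 18 class 2 cells and in at most 11 class 0 cells. Most genes of the red cell membrane were seen rarely or not at all. Gata1, Klf1, Nfe2, Tal1 and Gfi1b, transcription factors of red cell precursors, had no count in these class 2 cells.

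The mice were male wildtype C57BL/6 J animals of 10, 36, 77 and 101 weeks. Both classes came from the same animals, from blood whose red cells had been lysed, from the same sort of single Hoechst-positive events and, per mouse, from 1 plate number in the read file names. Full transcripts were captured with oligo-dT from cells whose methylome and transcriptome were both sequenced, without molecular identifiers, so that intervals and floors cover counting error only. Without the 4 hemoglobin genes, class 0 B cells held 159787 to 831206 counts with a median of 331218, and class 2 B cells 121042 to 559284 with a median of 300538. Cells of 1 mouse share their blood sample and their plate, and the mouse is the replicate throughout.

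Red cells lose their nucleus as they mature, and the youngest ones in blood, the reticulocytes, still carry messenger RNA for some time. Most of that RNA codes for the alpha and beta chains of hemoglobin. The rest includes enzymes of heme synthesis, proteins of the red cell membrane and skeleton, enzymes of gas transport and redox defence, and a set of ubiquitin and mitophagy proteins that clear organelles during maturation. Mature red cells have little RNA left.

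**Figure D1:**
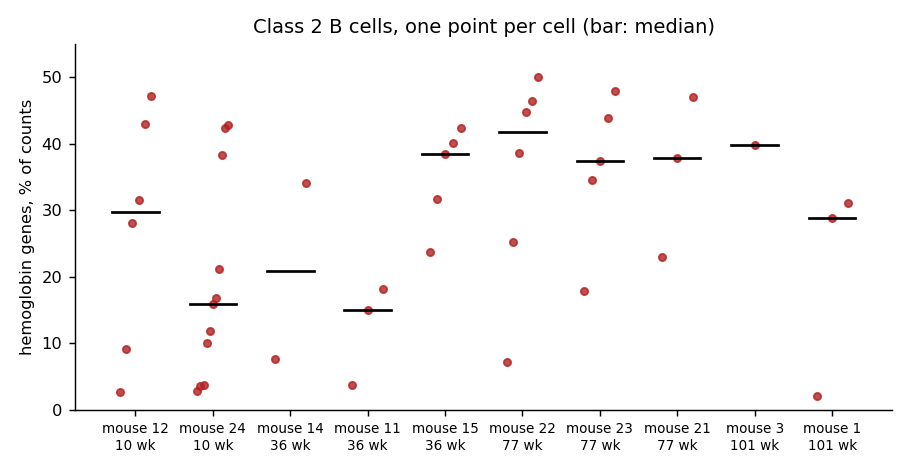
Share of each class 2 B cell's counts that fell on the 4 hemoglobin genes, in percent, with one point per cell, one column per mouse in order of age, and a bar at each mouse's median. Cells of the same mouse spread from a few percent to above 40 in several mice, and the highest cell of all, in mouse 22, reached 50.0 percent.

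The classes were chosen on hemoglobin, so the hemoglobin values are given as a description without a test. The 4 genes are Hbb-bt and Hbb-bs, which code for the adult beta chain, and Hba-a1 and Hba-a2, which code for the alpha chain. No class 0 B cell had a count on any of them. The 188 class 1 cells held between 1 and 5690 hemoglobin counts with a median of 212, and neither beta gene was found in all of them: Hbb-bt was present in 57.4% of class 1 cells and Hbb-bs in 65.4%. The 45 class 2 cells held between 7409 and 301787 such counts with a median of 128537. That is 2.10% to 50.0% of all counts in a class 2 cell, with a median of 31.0%, against a median of 0.0685% and a highest value of 1.53% in class 1. At the edge of the classes the mean over the 4 genes of ln(CPM + 1), where CPM is counts scaled to 1000000 per cell, was 7.74, 7.81 and 7.89 in the highest class 1 cells and 7.94, 8.40 and 8.50 in the lowest class 2 cells.

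Hbb-bs and Hba-a1 carried most of the hemoglobin counts in class 2 cells, with medians of 44.1% and 31.1% of the 4-gene sum, while Hba-a2 held 11.99% and Hbb-bt 9.74%. Per kilobase of exon the order was the same, with a median level of 175240 CPM per kilobase for Hbb-bs, 120732 for Hba-a1, 51905 for Hba-a2 and 42936 for Hbb-bt. The split within each chain is uncertain, because the paralogs are nearly identical and reads shared between them could fall on either.

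Class 2 cells were unevenly spread over the animals. They made up 20.7% and 21.2% of B cells in the 2 mice of 10 weeks, 3.70% to 8.20% in the 3 mice of 36 weeks, 5.56% to 13.6% in the 3 mice of 77 weeks and 0 to 3.85% in the 3 mice of 101 weeks. Class 1 cells ranged from 2.56% of B cells in mouse 1 to 68.9% in mouse 15, and the 3 oldest mice had the smallest shares, all under 5%. Shares were not tested against age. Read file names give 1 plate number for each mouse and placed 4 mice on sequencing lane 1, 6 on lane 2 and 1 on both. Class 2 shares were 8.20% to 21.2% in the lane 1 mice and 0 to 20.7% in the lane 2 mice, so the ranges overlap.

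The study assigned cell types from these cells' RNA, so the marker values below describe the cells and do not check the label. Cd79a, a signalling chain of the B cell receptor, was present in 43 of 44 class 2 and 251 of 256 class 0 cells, and Ms4a1, which codes for CD20, in 39 and 239. Of the markers of other cells, 6 of 8 T cell, 4 of 5 NK cell, 7 of 9 myeloid and 8 of 10 platelet genes had no count in class 2, Cd3d, Cd3e, Lyz2, S100a8, Pf4 and Ppbp among them. A T cell marker was present in 2 of 44 class 2 and 12 of 256 class 0 cells, an NK cell marker in 1 and 4, a platelet marker in 4 and 14 and a myeloid marker in 21 and 85, the last mostly through Csf1r, a growth factor receptor of monocytes, in 21 and 79 cells. Summed over its genes, the myeloid list stood at 0 to 9.19 CPM in class 2 and 0.615 to 31.8 in class 0, the platelet list at 0 to 63.9 and 0 to 27.0, the T cell list at 0 to 1.22 and 0 to 27.4 and the NK cell list at 0 to 0.348 and 0 to 1.89. With the 6 cells that held Cd3d, Cd3e, Lyz2, Ncr1 or Pf4 left out, Alas2 differed by 14.94 on the log2 scale (adjusted p = 0.0188 in edgeR). The part of the other markers in the results, Csf1r among them, was not tested.

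The reticulocyte label was checked against 4 markers, Alas2, Slc4a1, Bpgm and Hemgn. Of the 45 class 2 B cells, 13 had a count on none of them, 15 on 1 and 17 on 2. Among class 0 cells 354 of 367 had none and 13 had 1, and among class 1 cells 178 of 188 had none. Slc4a1, the anion exchanger band 3 of the red cell membrane, and Hemgn, a nuclear protein of erythroid precursors, had no count in any of the 44 paired class 2 cells. The label therefore rests on hemoglobin plus part of the marker list.

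Upstream sequence is shown for Alas2, Bpgm and Ube2l6, which were each found in 18 or more of the 44 class 2 cells and in at most 11 of the 256 class 0 cells. The letters are the 250 bases before each gene's RefSeq start on GRCm38.p6, all on the plus strand. That start lies 42 bases inside Alas2 and 149 inside Bpgm as the gene annotation used for the coordinates here has them, and at the same base for Ube2l6. Capitals mark GATAA, the core of the GATA factor motif, and CACCC, the core bound by KLF factors, each on either strand (TTATC and GGGTG read the other way), and a GGGTG and a GATAA may share their G.
Alas2, chrX:150547167-150547416: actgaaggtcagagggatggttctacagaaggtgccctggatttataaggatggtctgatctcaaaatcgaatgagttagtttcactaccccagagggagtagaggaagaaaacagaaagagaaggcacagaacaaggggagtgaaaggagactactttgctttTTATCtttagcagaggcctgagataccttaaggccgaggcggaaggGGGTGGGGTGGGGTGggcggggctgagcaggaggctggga
Bpgm, chr6:34476106-34476355: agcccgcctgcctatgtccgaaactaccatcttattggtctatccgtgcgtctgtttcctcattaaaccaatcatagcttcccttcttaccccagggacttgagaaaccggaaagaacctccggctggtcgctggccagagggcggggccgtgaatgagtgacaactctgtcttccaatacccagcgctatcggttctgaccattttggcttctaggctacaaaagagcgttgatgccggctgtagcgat
Ube2l6, chr2:84798578-84798827: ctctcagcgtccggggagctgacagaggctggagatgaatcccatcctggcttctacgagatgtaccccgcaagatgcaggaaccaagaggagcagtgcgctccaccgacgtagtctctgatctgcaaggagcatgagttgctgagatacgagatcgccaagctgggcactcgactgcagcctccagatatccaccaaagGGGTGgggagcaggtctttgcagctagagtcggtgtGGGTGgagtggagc
Upstream of Alas2, 1 GATAA stood 86 bases before the start and 3 CACCC stood 40, 35 and 30 bases before it. Ube2l6 had 2 CACCC and no GATAA, and Bpgm had neither. Over 32851 windows of this length, 22.6% held a GATAA and 52.0% a CACCC.

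Among the genes of heme synthesis and iron, Alas2, the first and rate-limiting enzyme of heme synthesis in red cells, came along most often. It lies on chromosome X from 150547375 to 150570638. It had counts in 29 of 44 class 2 cells and in 0 of 256 class 0 cells. Were the 256 cells independent, this would leave room for a share of up to 1.17%. They came from 9 mice, 73 of them from mouse 1, so the limit may be wider. In summed counts per mouse, class 2 held 156 CPM in the lowest mouse, 865 in the median mouse and 2601 in the highest, and class 0 held 0 in all 9 mice. The ranges did not overlap, as for 8 of the 9549 genes tested, Alas2 included, or 0.0838%, in this direction. A floor of 3 counts was set in each mouse's class 0 sum. Against it the class 2 level of Alas2 was 245-fold in mouse 14, the lowest, and 8490-fold in mouse 23, the highest. A class 2 cell that held Alas2 had a median of 466 counts, so 1 missed class 0 cell could exceed that floor. The folds are therefore no lower bounds. Alas2 passed the test's filter, a count in at least 5% of cells, through class 2 alone. The fit to the summed counts with edgeR's quasi-likelihood test gave a log2 difference of 14.97 ± 0.91 (SE) and an adjusted p of 0.0149. With no count in class 0 the size of that difference has no finite estimate, and the SE was worked back from the test's F statistic. The call was lost in lane 1 mice (15.59, adjusted p = 0.448), in lane 2 mice (14.73, adjusted p = 0.316) and with equal cell numbers (13.53, adjusted p = 0.792). The mean over cells of log2(CPM + 1), which weights each cell alike, differed by 6.70 ± 0.71 (SE) with an adjusted p of 0.000766 in limma, and was higher in 9 of 9 mice.

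**Figure D2:**
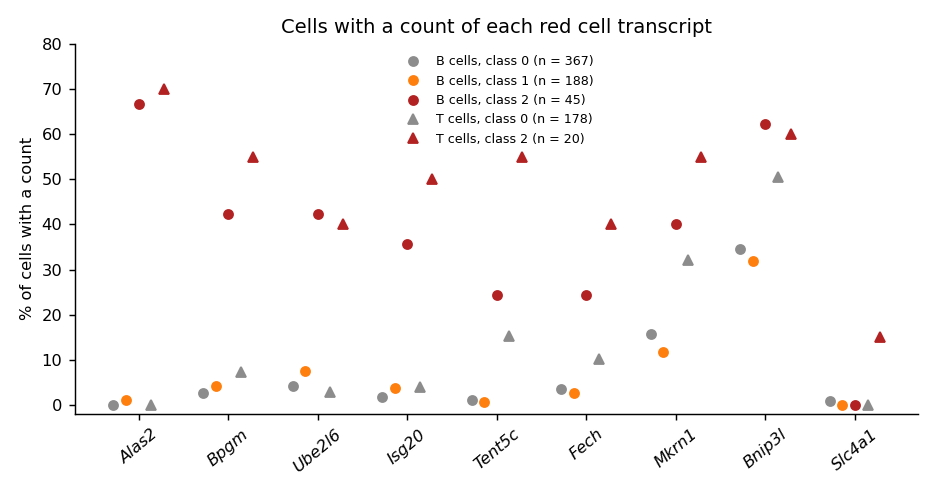
Percent of cells with at least 1 count of each of 9 red cell transcripts, in B cells of class 0, 1 and 2 (circles) and in T cells of class 0 and 2 (triangles), over all mice. Alas2 sits at 0 in class 0 of both lineages, at 66.7 percent in class 2 B cells and at 70.0 percent in class 2 T cells.

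Fech, the enzyme that puts iron into heme, was present in 10 of 44 class 2 and 8 of 256 class 0 cells. Its summed level ran from 0 to 466 CPM in class 2, with a median of 142, and from 0 to 73.0 in class 0. The groups overlapped, and the difference of 5.81 ± 3.13 (log2, SE) did not pass in edgeR (adjusted p = 0.296). Slc25a39, a mitochondrial carrier tied to heme synthesis, was present in 8 of 44 and 8 of 256 cells (adjusted p = 0.444 in edgeR). Ftl1, the light chain of ferritin, was in 43 of 44 class 2 cells and 227 of 256 class 0 cells. Its summed difference was 0.15 on the log2 scale, with an adjusted p of 0.786 in edgeR, while the mean over cells was 1.56 higher in class 2. Of 20 genes of this list, 19 had a count, 15 in a larger share of class 2 cells and 4 in a smaller share. Over all genes with a count 39.0% were in a larger share, here and for the lists below. Of the 13 tested edgeR called 1, Alas2, higher, against 0.23% of all genes tested. DESeq2 called 3 higher, Alas2, Fech and Slc25a39, and 3 lower, against 1.59% and 34.9% of all genes tested.

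Calls in this comparison had an adjusted p of at most 0.1. Over all 9549 genes tested, edgeR called 22 genes higher in class 2, 0.23%, and 835 lower, 8.74%. Without 1 mouse these were 11 to 21 higher and 98 to 1089 lower, with 11 and 98 without mouse 21, and the mice of either lane alone gave 0 and 0. Class 0 sums came from 11 to 73 cells a mouse and class 2 sums from 2 to 11. The genes called lower had counts in a median of 8.98% of class 0 cells and 4.55% of class 2 cells, and 785 of the 835 were in under 20% of class 0 cells. The median log2 difference over all genes tested was -1.81, and 11.2% of genes were positive. With class 0 cells drawn down to the number of class 2 cells in each mouse, an alternative added after these values were seen, the median was 0.14, 55.8% were positive, and edgeR called 0 genes in either direction, with 380 at an unadjusted p under 0.05. limma on the means over cells called 3 higher, 0.0314%, Alas2, Hba-ps4 and Csmd2, and 0 lower, with 733 at an unadjusted p under 0.05, and DESeq2 on the unequal sums called 152 higher, 1.59%, and 3334 lower, 34.9%. Equal numbers also mean fewer cells, and Alas2 lost its call there with a log2 difference of 13.53, so the lost calls do not tell the number of cells apart from a loss of power. Fold changes in sums are given beside counts of cells, and no gene is described as having fallen.

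**Figure D3:**
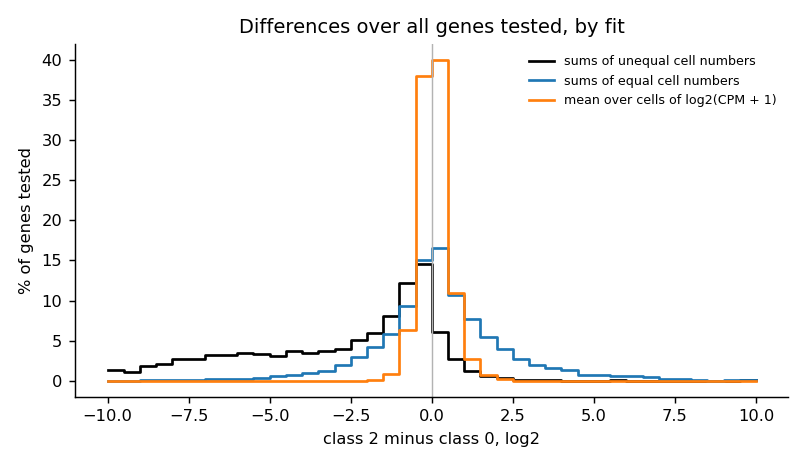
Distribution over all genes tested of the class 2 minus class 0 difference on the log2 scale, as percent of genes per bin of 0.5, for the sums of unequal cell numbers, for sums of equal cell numbers and for means over cells of log2(CPM + 1). The first has a long tail to the left and a median of -1.81, while the other 2 center near 0 with medians of 0.14 and 0.04. Values beyond 10 in either direction are counted in the outermost bins.

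Among the genes of gas transport and redox defence, Bpgm, which makes the 2,3-bisphosphoglycerate that lowers the oxygen affinity of hemoglobin, was present in 18 of 44 class 2 and 7 of 256 class 0 cells. Its summed level was 0 to 909 CPM in class 2, with a median of 365, and 0 to 191 in class 0, with a median of 13.0. The groups overlapped, with 2 class 2 sums at 0, and the difference did not pass (4.83 ± 2.58 on the log2 scale, SE, adjusted p = 0.292 in edgeR, and an adjusted p of 0.225 in limma on cell means). The edgeR difference was 9.19 with equal cell numbers and -0.87 in lane 2 mice, and neither passed. Gpx1, the glutathione peroxidase of red cells and of many others, was in 39 of 44 and 182 of 256 cells. It stood at 776 to 2482 CPM in class 2 and 335 to 1230 in class 0, higher in 8 of 9 mice, with an adjusted p of 0.382 in edgeR. Car2, a carbonic anhydrase, showed no such split, with counts in 5 of 44 and 24 of 256 cells. Car1 and Pklr had none in either class. Of 13 genes on this list 11 had a count, 8 of them in a larger share of class 2 cells, and 0 of 9 tested passed in edgeR, while DESeq2 called 2 higher, Bpgm and Gpx1, and 3 lower, against 1.59% and 34.9% of all genes tested.

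Among the genes of organelle clearance, Isg20, an exonuclease abundant in late red cell precursors, was present in 15 of 44 class 2 and 3 of 256 class 0 cells. Its summed level was 0 to 645 CPM in class 2, with a median of 169, and 0 in 7 of 9 class 0 sums. edgeR called it higher (10.76 ± 2.99 on the log2 scale, SE, adjusted p = 0.0785), though it passed the filter through class 2 alone. limma on cell means did not call it (adjusted p = 0.286). The edgeR call was also lost when any 1 of mice 11, 14, 15, 21, 22 and 23 was left out (adjusted p 0.117 to 0.144). Ube2l6, a conjugating enzyme for ubiquitin-like ISG15, was in 18 of 44 and 11 of 256 cells, with a median sum of 480 CPM against 26.5 (adjusted p = 0.322 in edgeR). Its log2 difference was 5.78, with 12.15 at equal cell numbers and -2.14 in lane 2 mice, and none of these passed. Bnip3l, the mitophagy receptor that removes mitochondria from reticulocytes, was in 27 of 44 and 80 of 256 cells, and its sum was higher in 8 of 9 mice, with medians of 727 and 214 CPM (adjusted p = 0.563 in edgeR). Mkrn1, a ubiquitin ligase, was in 17 of 44 and 34 of 256 cells (adjusted p = 0.446 in edgeR). Of 17 genes with a count, 12 were in a larger share of class 2 cells. Of 14 tested, edgeR called Isg20 higher and the ligase Rnf123, at 0 of 44 and 20 of 256 cells, lower, a call that was lost with equal cell numbers. DESeq2 called 3 higher, Isg20, Ube2l6 and Mkrn1, and 4 lower. Over all genes tested edgeR called 0.23% higher and 8.74% lower, and DESeq2 1.59% and 34.9%.

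**Figure D4:**
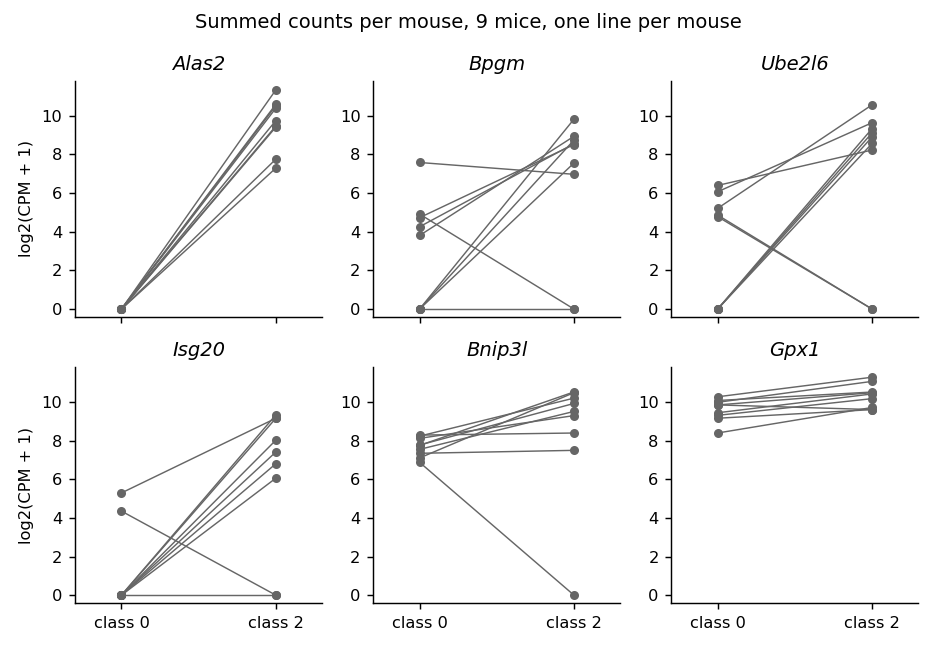
Summed counts per mouse as log2(CPM + 1) in class 0 and class 2 B cells for 6 genes, with one line for each of the 9 mice. Alas2 is at 0 in every class 0 sum and above 7 in every class 2 sum, and the lines of Gpx1 lie between 8 and 12 in both classes.

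Among the regulators and other red cell genes, Tent5c, a poly(A) polymerase, was in 10 of 44 and 1 of 256 cells, too few to be tested. Of the transcription factors of red cell precursors, Gata1, Klf1, Nfe2, Tal1 and Gfi1b had no count in any of the 44 class 2 cells. Lmo2, of the same list, was in 16 of 44 and 84 of 256 cells. Gata2, outside the lists, was in 11 and 11, at a median of 1 count in the class 2 cells that held it. Of 18 genes 16 had a count, 9 of them in a larger share of class 2 cells, and 6 were tested.

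Genes of the red cell membrane and skeleton were seen unevenly. Of 24 genes, 19 had a count and 14 had one in class 2, against 17295 of all 38784 genes. Of the 19, 11 were in a larger share of class 2 cells and 8 in a smaller share. The 11 make 57.9%, against 39.0% over all genes with a count. None of the 8 tested passed in edgeR, while DESeq2 called 1 higher, Cd59a, and 3 lower, against 1.59% and 34.9% of all genes tested. All 8 were in over 5% of class 0 B cells. Cd47, the don't-eat-me ligand, was in 35 of 44 and 202 of 256 cells, and Cd24a in 26 and 123. Epb41, protein 4.1 of the skeleton, was in 15 of 44 and 49 of 256 cells (adjusted p = 0.797 in edgeR). Sptb, beta-spectrin, had counts in 4 of 44 class 2 cells, while Ank1, Rhag, Kel and Aqp1 had none in class 2.

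Over the 6 red cell lists, 100 of 104 members were in the table and 88 had a count, 61 of which, 69.3%, were in a larger share of class 2 than of class 0 cells. The same share over all 28912 genes with a count was 39.0%, and 11617 of these genes had counts in class 0 only, the class with more cells. Of 51 members tested edgeR called 4 higher, Alas2, Hba-ps4 and Isg20 among them, and 1 lower. limma on cell means called 2 higher, and DESeq2 called 11 higher and 14 lower. Over all genes tested edgeR called 0.23% higher and 8.74% lower, limma 0.0314% higher, and DESeq2 1.59% higher and 34.9% lower. Of the 51, 9 were in under 5% of class 0 cells, so that they passed the filter through class 2. Alas2, Hba-ps4, Isg20, Bpgm, Ube2l6, Fech and Slc25a39 were among them. The median log2 difference of the 51 was -0.99 in the sums, against -1.81 over all genes, and 0.50 in the means over cells, against 0.04. In the means over cells 40 of 51 were higher in class 2, against 5216 of 9549 genes. The other 4 members were not analysed here.

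Other globin transcripts followed hemoglobin. Hba-ps4, an alpha globin pseudogene on chromosome 17, had counts in 42 of 44 class 2 and 1 of 256 class 0 cells, and Hba-ps3, another one on chromosome 15, in 23 and 1. edgeR called both higher, by 11.09 ± 1.57 and 6.71 ± 0.64 (log2, SE), with adjusted p of 0.0149 and 0.00163. Both resemble the alpha genes that defined the classes and may share their reads, so they are no independent evidence. They also passed the filter through class 2 alone. Over the 45 class 2 cells Hba-ps4 held 22.5 counts for every 100000 hemoglobin counts, and the figure was 22.5 in class 2 T cells as well. The embryonic globins Hbb-y and Hbb-bh2 had no count, and Hba-x, Hbb-bh1 and Hbb-bh3 were in 2 class 2 cells each, with 2 counts in all for each gene. Hbq1a and Hbq1b, the theta globins, had 197 and 55 counts in 2 class 2 cells each.

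Many of the genes called higher had very few counts. Of the 22, 16 had a median of 3 or fewer counts in the class 2 cells that held them. Of these 16, 10 were in under 5% of class 0 cells and so passed the filter through class 2, and limma on cell means called 0 of the 16, with adjusted p of 0.225 for Trpm8, 0.286 for Gm18294 and 0.168 for Ces2b. Trpm8, a cold-sensing ion channel, had 38 counts in 22 of 44 class 2 cells and none in 256 class 0 cells. Gm18294 had counts in 24 of 44 and 0 of 256 cells, and Ces2b, a carboxylesterase, in 27 and 11. By contrast the cells that held Alas2 had a median of 466 counts of it and those with Isg20 209. Over the 45 class 2 cells, Trpm8 gave 0.69 counts for every 100000 hemoglobin counts, and in the 20 class 2 T cells 0.63. The rank correlation of its count with the hemoglobin count of the cell was 0.66 over the 45 class 2 B cells, given without a p. The part of the hemoglobin reads in these low counts was not tested.

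Within class 2, the cells with more hemoglobin carried more of the other red cell transcripts. Over 9 red cell list genes found in under 5% of class 0 cells, Hba-ps4 among them, a class 2 cell held a median of 3, from 0 to 8. The choice of these genes fixed a low number in class 0, so that class is not compared. The 15 class 2 cells with the least hemoglobin, 2.10% to 17.9% of counts, had a median of 2 of these genes and 3 held Alas2. The middle 15 cells had a median of 3 and 12 held Alas2. The 15 with the most hemoglobin, 38.4% to 50.0%, had a median of 6 and all 15 held Alas2. Over the 45 cells Pearson's r between hemoglobin share and number of genes was 0.75 and Spearman's rho 0.73, and without Hba-ps4 they were 0.74 and 0.72, given without a p since cells of 1 mouse share their source and the counts of a cell share their depth. The number of other counts in a cell went with neither, at a rho of -0.22 with the hemoglobin share and 0.14 with the number of genes.

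**Figure D5:**
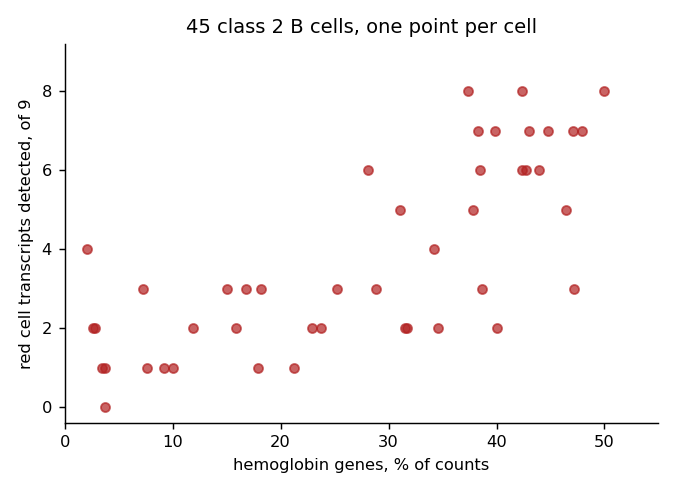
Number of 9 red cell transcripts detected in each of the 45 class 2 B cells, against the percent of that cell's counts on the 4 hemoglobin genes. No cell under 20 percent holds more than 4 of the 9, and those above 40 percent hold 2 to 8.

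Class 1 cells showed little of this. Alas2 was present in 2 of 188 class 1 cells, Bpgm in 8, Isg20 in 7 and Ube2l6 in 14, or 1.06%, 4.26%, 3.72% and 7.45%, against 0, 2.72%, 1.63% and 4.09% of the 367 class 0 cells. Class 1 cells held a median of 212 hemoglobin counts against 128537 in class 2, and the part of that gap in the lower shares was not tested. Between class 1 and class 0, in 11 mice, edgeR called 0 of 9552 genes in either direction, with 314 at an unadjusted p under 0.05, and limma on cell means also 0, with 488, while DESeq2 called 57 higher, 0.597%, and 1113 lower, 11.7%. Between class 2 and class 1, which share the class 2 samples with the first comparison, edgeR called 15 genes higher, 0.161% of 9313, and 102 lower, 1.1%. These counts fell to 2 and 0 without any 1 of mice 11, 15, 21, 22, 23 and 24, to 3 and 0 without mouse 12 and to 6 and 2 without mouse 14, and were 15 and 125 without mouse 1. They were 2 and 0 in cells thinned to 100000 counts, 1 and 0 in mice with at least 3 cells of each class, and 0 and 0 in the mice of either lane alone. In the full comparison Alas2 differed by 13.5 on the log2 scale (adjusted p = 0.00197), and with equal cell numbers 1 gene was called, Alas2.

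T cells of class 2, which the choice of B cells did not use, also held these transcripts. Of 20 such cells, 14 had Alas2, 11 Bpgm, 11 Tent5c, 10 Isg20, 8 Fech and 8 Ube2l6, against 0, 13, 27, 7, 18 and 5 of 178 class 0 T cells. Slc4a1, absent from class 2 B cells, was in 3 of 20. Trpm8 was in 11 of 20 class 2 and 1 of 178 class 0 T cells. The 4 class 2 cells of other types, monocytes and NK cells, all held Alas2. In T cells edgeR called 0 of 10880 genes in either direction for class 1 or 2 against class 0 in 10 mice, with 192 at an unadjusted p under 0.05, and 0 of 9926 for class 2 alone in 5 mice, with 1296, while DESeq2 called 249 higher, 2.29%, and 379 lower, 3.48%, in the first and 56 higher, 0.564%, and 2144 lower, 21.6%, in the second. The 1 class 2 B cell left out for want of a second in mouse 3 had 187 counts of Alas2 and 7 of the 9 genes.

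The rest of the B cell transcriptome was compared within mice by 8 values per cell, with an exact two-sided sign-flip permutation test whose smallest possible p is 0.00391. Counts without hemoglobin were 316996 ± 76720 in class 2 and 313047 ± 45553 in class 0 (SD, n = 9 mice), higher in 5 and lower in 4, with an exact p of 0.879. Genes detected in a draw of 100000 counts numbered 1940 ± 191 and 1813 ± 163 (SD, n = 9), more in 7 of 9 mice, with an exact p of 0.0273 and 0.219 after adjustment over the 8 values. Ribosomal protein genes took 10.6% ± 1.23 and 9.88% ± 1.45 of counts (SD, n = 9, adjusted exact p = 0.344), and mitochondrial genes 2.60% ± 0.594 and 2.53% ± 0.315 (adjusted exact p = 0.826). B cell markers took 4.53% ± 0.627 in class 2 and 4.83% ± 0.636 in class 0 (SD, n = 9), lower in 6 of 9 mice, with an adjusted exact p of 0.344. T cell, platelet and myeloid markers were under 0.001% in the mean of each class and did not pass (adjusted exact p of 0.516, 0.677 and 0.575). None of the 8 passed at an adjusted p of 0.1, but genes detected did with medians over cells (145 more, adjusted exact p = 0.0625) and in a draw of 150000 counts (172 more, adjusted exact p = 0.0938).

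Among the genes named by the smallest p, edgeR's lower calls on the unequal sums took in 4 of 13 B cell markers, Cd74, the invariant chain of MHC class II, H2-Aa and H2-Ab1, chains of MHC class II, and Ms4a1. Cd74 differed by -0.47 ± 0.07 (log2, SE, adjusted p = 0.0157), but its CPM was lower in 5 of 9 mice and higher in 4. The calls also took in 1 of 80 ribosomal protein genes tested, Rpl19, and 2 of 25 mitochondrial genes tested, mt-Nd1 and mt-Cytb, where 8.74% of all genes tested were called lower. Outside the lists, the 10 lower calls with the smallest p, Kdm4b, Uggt1, Amn1, Clpx, Erg28, Lgals4, Smim15, Ighv1-55, Trim11 and Polr2i, were each found in 1 of 44 class 2 cells and in 17 to 39 of 256 class 0 cells. All 17 calls were lost with equal cell numbers and in limma on cell means.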

How the data were processed

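RNA counts of single blood cells from 11 mice were taken as deposited. Per the labels and the study's methods, the authors trimmed reads with Trim Galore 0.6.7, aligned them with STAR to GRCm38 and deposited whole-number counts per Ensembl gene for each cell, not normalized and without molecular identifiers. All 38788 genes of the table matched the annotation used here. The table held 1055 cells, of which 981 were kept by the authors. Mouse, cell type and hemoglobin class came from the study's per-cell annotation; cell names could not be tied to the 2 deposited samples, which belong to 1 group.

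The alpha genes Hba-a1 and Hba-a2 and the beta genes Hbb-bs and Hbb-bt were removed before normalization. Counts were summed per mouse and class, genes with a count in at least 5% of the cells and in 3 mice were kept, and classes were compared with edgeR 4.0.16 (TMM, quasi-likelihood test with robust dispersion, mouse as a block, Benjamini-Hochberg adjusted p of at most 0.1) in R 4.3.3. The mouse pairs the classes because both come from the same animal. The SE printed with an edgeR difference is the size of the difference divided by the square root of its F statistic. Alternatives used limma 3.58.1 on means over cells of log2(CPM + 1), a pseudocount of 1, and DESeq2 1.42.0, among others. Per-mouse values were tested by exact permutation with scipy 1.17.1. Sums held 415440 to 29038178 counts. On simulated sums for 9549 genes of class 2 against class 0, 78% of genes changed 256-fold and 14% of those changed 16-fold were recovered; the simulation drew sums, not cells.

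Genes were named by a rule: the members of each red cell list with the smallest p past the threshold, up to 6, or else the 2 with the most counts, 11 reticulocyte genes always, the 10 genes outside the lists with the smallest p in each direction, and markers of other cell types. The red cell genes named beyond it were chosen after their values were seen. Some list members are not reported here by name. The members and lists were chosen with earlier results of these data known. Motifs were searched in the first 250 bases of RefSeq promoter windows.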

Additional observations from a re-analysis of the deposited data

Results flagged for a closer look

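Chance flags about 1 in 20 groups of this size, and 21 sets of 9 within-mouse differences between class 2 and class 0 were screened. In 5 of them 1 mouse stood far from the rest. In mouse 14, which gave 2 class 2 cells, mitochondrial genes took 1.11 percentage points more of the counts in class 2, against a median of 0.0519 over the 9 mice. In mouse 1 ribosomal protein genes took less of the counts in class 2, a difference of -2.01 percentage points against a median of 0.983. In mouse 12 the T cell marker share differed by -0.00301 percentage points, and in mouse 22 the platelet marker share by 0.00395, where the medians were -1.68e-05 and 0. For Slc4a1, which had no count in class 2, the mean of log2(CPM + 1) differed by -0.0612 in mouse 23 against a median of 0.

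The count table also held 74 cells that the study did not keep. Of the 44 of these with at least 10000 counts, 2 had more than 1% of them on hemoglobin; they were in no comparison.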

How the results depend on the processing

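For class 2 against class 0 B cells, where the sums gave 22 genes higher and 835 lower, DESeq2's size factors in edgeR gave 510 lower, DESeq2 gave 152 higher and 3334 lower, limma on means over cells 3 and 0, no filter beyond 1 count 3 and 1, and the protein-coding filter at 25% of cells 0 and 0. Mice with at least 3 cells of each class gave 188 lower. Lane 1 mice gave 0 and 0, lane 2 mice 0 and 0, and equal cell numbers, added after seeing the data, 0 and 0. The fit with no replicate block, which ignores that both classes come from the same mouse, gave 35 higher and 333 lower. Leaving out 1 mouse gave 11 to 21 higher and 98 to 1089 lower, the fewest without mouse 21, and the higher calls fell below 15 without mouse 1, 11, 15, 21 or 23.

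For class 2 against class 1, with 15 higher and 102 lower, DESeq2 gave 94 and 2417, limma 3 and 0, no filter 1 and 0, the protein-coding filter 0 and 0, cells thinned to 100000 counts 2 and 0, mice with at least 3 cells of each class 1 and 0, no replicate block 33 and 247, lane 1 mice 0 and 0, lane 2 mice 0 and 0, and equal cell numbers 1 and 0. Leaving out 1 mouse gave 2 to 15 higher and 0 to 125 lower. For class 1 against class 0, with no call, DESeq2 gave 57 and 1113 and leaving out 1 mouse 0 to 3 lower. For T cells of class 1 or 2 DESeq2 gave 249 and 379 and no other alternative run gave a call. The cause of the larger DESeq2 counts was not tested.

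Of 42 named genes under 17 to 22 alternatives each, 622 comparisons kept direction and call, 239 lost the call, 7 gained one and 11 turned. The turned ones did not pass under the alternative: in lane 2 mice Bpgm (-0.870), Ube2l6 (-2.14) and Cd24a (-0.18), in limma Cd47 (0.25), Car2 (0.50), Cd79a (0.025) and mt-Cytb (0.056), and for Car2 no replicate block (0.58), lane 1 mice (0.76) and equal cell numbers (0.066), where mt-Cytb gave 0.013. Alas2 kept its call in 18 alternatives and lost it in both lanes (15.59 and 14.73) and with equal cell numbers (13.53), against 14.97 on the log2 scale.

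Among the per-mouse values, genes detected passed the adjusted threshold of 0.1 with medians over cells (145 more genes, adjusted exact p = 0.0625) and in a draw of 150000 counts (172, adjusted exact p = 0.0938). The difference in total counts ranged from -8952 to 17639 when 1 mouse was left out, that in genes detected from 95.97 to 152, in B cell markers from -0.436 to -0.210 percentage points, in ribosomal genes from 0.537 to 1.03, in mitochondrial genes from -0.0595 to 0.142, in T cell markers from -0.000435 to -4.47e-05, in platelet markers from -1.95e-07 to 0.000500 and in myeloid markers from -0.000691 to -0.000221. With 3 cells of each class the mitochondrial difference was -0.0595, and with medians the myeloid one 2.26e-04. Each class 2 sum held 2 to 11 cells, which limits what can be said of transcripts found in few cells.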

Other observations

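Outside the red cell lists, 5 genes with a median of more than 3 counts in the class 2 cells that held them were found in over 20% of class 2 and under 5% of class 0 B cells. Isca1, an iron-sulfur cluster assembly protein, was in 13 of 44 and 10 of 256 cells, Slamf7, a surface receptor of immune cells, in 12 and 11, AK157302 in 11 and 9, Nmrk1, a kinase of the NAD salvage pathway, in 9 and 8, and Setdb1, a histone methyltransferase, in 9 and 12. None passed in edgeR's quasi-likelihood test on the sums (adjusted p from 0.168 to 0.538). In T cells Isca1 was in 5 of 20 class 2 and 19 of 178 class 0 cells, AK157302 in 5 and 14, Slamf7 in 3 and 21, Setdb1 in 3 and 13, and Nmrk1 in 0 and 12.

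Over all 600 B cells, the genes named here whose level ranked most like the mean level of the 4 hemoglobin genes were Hba-ps4 (Spearman's rho 0.55), Alas2 (0.44), Gm18294 (0.38), Trpm8 (0.38), Hba-ps3 (0.38), Csmd2 (0.33), Ces2b (0.32), Kcnj1 (0.30) and mt-Rnr2 (0.29), given without a p. The points share mice and plates, and 367 of the cells were class 0. Csmd2 was in 34 of 44 class 2 and 13 of 256 class 0 cells with a median of 6 counts, and its mean over cells was 3.22 higher on the log2 scale (adjusted p = 0.0367 in limma).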
